A study of Mus musculus with 2 samples.

Results

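Glucose uptake and the control of glycolysis were followed through 9 genes, namely the transporters Slc2a1 and Slc2a4, the hexokinases Hk1 and Hk2, the phosphofructokinase Pfkm, the fructose bisphosphate enzymes Pfkfb1 and Pfkfb2, and the pyruvate dehydrogenase kinases Pdk1 and Pdk2. The genes were chosen by name as entry and control points of glucose use, and all 9 were listed in both libraries, out of 25235 genes listed in either library. The data were SNP-overlapping reads of single-nucleus RNA-seq (snRNA-seq) from 1 adult heart (9 weeks) and 1 aged heart (78 weeks) of female F1 mice with a C57BL/6J (BL6) mother and a CAST/EiJ (CAST) father. For both animals the genotype field gives C57BL/6JxCAST/EiJ, whereas the strain field names the cross with a BL6 Xist deletion, C57BL/6J∆Xist-/+ x CAST/EiJ. The paper describes both snRNA-seq hearts as coming from wild-type females of the BL6 x CAST cross, as the genotype field does. The values of each age cover nuclei with an active BL6 X chromosome (Xa), pooled over all cell clusters into 1 pseudobulk, and in them the CAST X chromosome was the inactive one (Xi). The aged file is named with a different age in weeks, and the 78 weeks of the labels were used.

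Glucose enters a cell through GLUT transporters. It is trapped by hexokinase and committed to glycolysis by phosphofructokinase, whose strongest activator, fructose bisphosphate of the 2,6 form, is made and removed by the PFKFB enzymes. Pyruvate dehydrogenase kinases (PDK) switch off the complex that passes pyruvate on to the citric acid cycle, and in this way favour the use of fatty acids, the main fuel of the adult heart.

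SNP-overlapping reads totalled 9747535 in the adult library, spread over 24015 genes, and 5805807 in the aged library, spread over 22691. Reads per gene were scaled to 1000000 SNP-overlapping reads of the library (RPM), and the allelic ratio is the share of BL6 reads, from 0 (all CAST) to 1 (all BL6). All ranges in brackets are exact 95% intervals for the counting of reads (Newcombe intervals for changes in allelic ratio). They do not cover differences between mice, since each age had 1 library, and no test between the ages was possible. Among the 12736 genes with at least 20 reads in both libraries the median aged to adult ratio was 1.165, a log2 shift of 0.22, so that a gene at a ratio of 1 lay below most genes. All 12 cardiomyocyte markers, such as Myh6 and Tnnt2, passed 20 reads in both libraries. Of the skeletal muscle markers, Myh1, Myh2 and Myh4 had no read in either, and Actn3, Mybpc2 and Tnnt3 had 3 to 17 reads per library.

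The 9 genes did not move in one direction. The hexokinases Hk1 and Hk2 and the phosphofructokinase Pfkm had higher levels in the aged library, while both transporters, both PFKFB genes and both PDK genes had lower levels. Pfkfb2, which codes for the main PFKFB form of heart muscle, was 2.98-fold lower, Pdk2 2.26-fold lower and Pdk1 1.70-fold lower, whereas Hk1 was 1.96-fold higher. All 9 genes passed the minimum of 20 reads in both libraries. Of them, 4 had an aged to adult ratio of 1/1.5 or less (Slc2a4, Pfkfb2, Pdk1 and Pdk2), beside 11.8% of all 12736 genes, and 1 had a ratio of 1.5 or more (Hk1), beside 28% of all genes. When the reads were scaled by the median of ratios instead, 18.0% of all genes were higher and 18.4% lower by that fold. Scaled so, 5 of the 9 were lower, Pfkfb1 being added, and scaled to the cardiomyocyte markers 3 were, without Slc2a4. The median of the 9 ratios was 0.667, and 6 of the 9 lay below 1, as did 35.8% of all genes. The interval of the ratio excluded 1 for 8 of the 9, the exception being Slc2a1. How many of all genes had such an interval was not counted, and the width of an interval depends on depth. The intervals of Slc2a1, Hk2 and Pfkm included the median of all genes. In pooled nuclei, fewer nuclei of a cell type and less RNA per nucleus cannot be told apart.

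**Figure D1:**
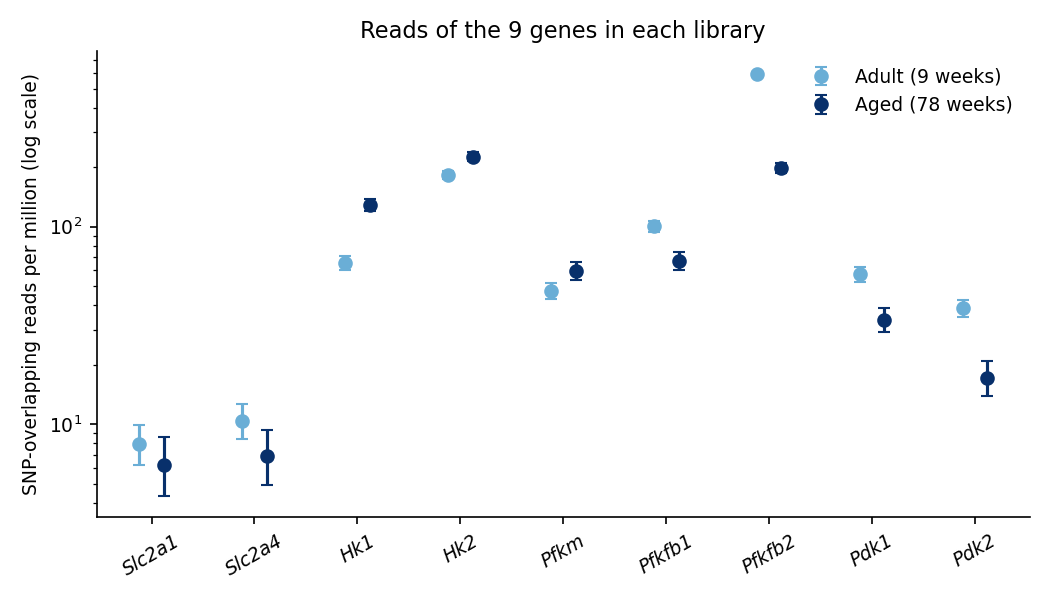
SNP-overlapping reads in RPM (vertical axis, log scale) of each of the 9 genes in the adult (light) and the aged (dark) library. Points are the 2 libraries and bars exact 95% Poisson intervals. Hk1 stands higher in the aged library (128.5 against 65.5 RPM), and Pfkfb2 lower (198.8 against 591.6 RPM).

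Levels between genes were compared per kilobase of locus, in RPM, on the understanding that the number of SNPs in each locus, which also sets this level, was not counted. In the adult library Pfkfb2 stood at 14.7 RPM per kb, ahead of Hk2 at 3.70 and Pdk2 at 2.55. Pdk1, Pfkfb1 and Slc2a4 followed at 1.87, 1.81 and 1.75, and their intervals overlapped. Pfkm at 1.19, Hk1 at 0.589 and Slc2a1 at 0.276 RPM per kb came last. In the aged library Pfkfb2 at 4.94 and Hk2 at 4.57 RPM per kb were not separated by their intervals, and Pfkm was next at 1.495. Pfkfb1, Slc2a4, Hk1, Pdk2 and Pdk1 lay close together between 1.10 and 1.21, with overlapping intervals. Slc2a1 stayed lowest at 0.217 RPM per kb. Pfkfb2 alone made up 53.7% of the reads of the 9 genes in adult and 26.7% in aged nuclei. The sum over the 9 genes was 1101.9 RPM in adult and 743.6 RPM in aged nuclei, and without Pfkfb2 it was 510.3 and 544.8 RPM.

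Both transporters had few reads. Slc2a4 (chr11:69942286-69948217, minus strand), which codes for the insulin-responsive transporter GLUT4, had 101 reads in adult and 40 in aged nuclei, or 10.4 RPM [8.44 to 12.6] and 6.89 RPM [4.92 to 9.38]. Its ratio was 0.665 [0.449 to 0.968], just past the threshold of 1/1.5, and the intervals of its levels overlapped. More of its reads came from CAST than from BL6 in both libraries, with 61 CAST and 40 BL6 reads in adult and 25 and 15 in aged nuclei. The allelic ratio was 0.396 [0.300 to 0.498] and 0.375 [0.227 to 0.542], below the autosomal medians of 0.536 and 0.537, although the wider aged interval included the median. Slc2a1 (chr4:119108745-119137330, plus strand), which codes for the basal transporter GLUT1, had 77 and 36 reads, or 7.90 RPM [6.23 to 9.87] and 6.20 RPM [4.34 to 8.58]. Its ratio of 0.785 [0.513 to 1.18] was not separable from 1 at this depth. By allele, the BL6 reads stood at 50 and 30, a ratio of 1.01 [0.618 to 1.61], whereas the CAST reads were 27 and 6, a ratio of 0.373 [0.126 to 0.923]. The allelic ratio of Slc2a1 was 0.649 [0.532 to 0.755] in adult and 0.833 [0.672 to 0.936] in aged nuclei, a change (adult minus aged) of -0.184 [-0.326 to -0.00338]. It was the only 1 of the 9 genes that changed by 0.1 or more in allelic ratio, beside 27.4% of all 12736 genes, and its aged value rests on 6 CAST reads.

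The hexokinases add a phosphate to glucose and so hold it in the cell. Hk1, the broadly expressed form, spans chr10:62268855-62379916 on the minus strand. It had 638 reads in adult and 746 in aged nuclei although the aged library was smaller, or 65.5 RPM [60.5 to 70.7] and 128.5 RPM [119.4 to 138.1]. The ratio was 1.96 [1.76 to 2.19], and 87.8% of all genes had a lower ratio. Both alleles had higher levels in the aged library, by 1.74-fold [1.49 to 2.03] for the BL6 and 2.21-fold [1.90 to 2.57] for the CAST reads. The allelic ratio accordingly moved from 0.516 [0.476 to 0.555] to 0.456 [0.420 to 0.492], and the change of 0.0599 [0.0071 to 0.112] excluded 0. Hk2 (chr6:82725023-82774454, minus strand), the insulin-responsive form of muscle, had 1783 and 1311 reads, or 182.9 RPM [174.5 to 191.6] and 225.8 RPM [213.7 to 238.4]. Its ratio of 1.23 [1.15 to 1.33] lay near the middle of all genes, 55.2% of which had a lower one. Hk2 reads were evenly divided between the alleles, with an allelic ratio of 0.501 [0.478 to 0.525] in adult and 0.482 [0.455 to 0.510] in aged nuclei. Hk2 thus made up 73.7% [71.8 to 75.4] of the Hk1 and Hk2 reads in adult and 63.7% [61.6 to 65.8] in aged nuclei, and these intervals did not overlap. A noncoding locus inside Hk1, Hk1os, shares 9260 bp with it and had 15 reads in adult and 3 in aged nuclei.

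Promoter windows from 250 bases before to 50 after an annotated start were taken from RefSeq (GRCm38.p6), the build of the read counts, for the genes that differed by 1.5-fold and for Pfkfb1 at the edge of that fold. Of the 9 genes, 8 had an entry in the promoter table. Where a gene had several starts, the window with most CG dinucleotides is shown, so that a high count of them is in part set by this choice. The letters searched on both strands were the E-box CACGTG, the core of the hypoxia response element ACGTG, the ERR element AAGGTCA, the TATA box TATAAA, the CCAAT box CCAAT and the GC box GGGCGG, and capitals mark a match to any of them. Each E-box holds the core ACGTG on either strand and is counted there as 2 matches. Of 27025 mouse promoter windows of the same length, 7.24% held an E-box, 19.7% the hypoxia core, 4.66% the ERR element, 14.2% a TATA box, 37.9% a CCAAT box and 35.9% a GC box, and the median window had 7 CG dinucleotides. The sequences are those of the BL6 reference, and the CAST allele may differ from them.

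For Hk1 the window lies on the minus strand at chr10:62340372-62340671, which is 39495 bp inside the 5′ end of the locus and runs into Hk1os. It was chosen for its 20 CG dinucleotides, against 1 in the other window of Hk1. It holds the hypoxia core 2 times and no other of the letters searched. It is shown because Hk1 was the only member above 1.5-fold.
Hk1: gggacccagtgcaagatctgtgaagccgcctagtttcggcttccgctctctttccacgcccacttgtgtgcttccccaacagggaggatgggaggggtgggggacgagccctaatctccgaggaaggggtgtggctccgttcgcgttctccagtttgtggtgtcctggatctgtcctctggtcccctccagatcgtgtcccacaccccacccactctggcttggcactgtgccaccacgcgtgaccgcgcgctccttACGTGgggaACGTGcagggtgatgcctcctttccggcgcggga

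Phosphofructokinase sets the pace of glycolysis. Pfkm (chr15:98092589-98132447, plus strand), its muscle subunit, had 461 reads in adult and 346 in aged nuclei, or 47.3 RPM [43.1 to 51.8] and 59.6 RPM [53.5 to 66.2]. The ratio of 1.26 [1.09 to 1.45] was near that of Hk2. BL6 reads were in excess, with 286 BL6 and 175 CAST reads in adult and 199 and 147 in aged nuclei. The allelic ratio of Pfkm was thus 0.620 [0.574 to 0.665] in adult nuclei, above the autosomal median, and 0.575 [0.521 to 0.628] in the aged library, where the interval included it. Pfkm overlaps the 5′ region of Senp1, a SUMO protease gene of 598 and 312 reads, over 1379 bp, and a locus named LOC108168225 with 2 reads and 1 read. Since the strand of counting is not stated, reads of an overlapped stretch cannot be assigned to 1 of the loci.

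**Figure D2:**
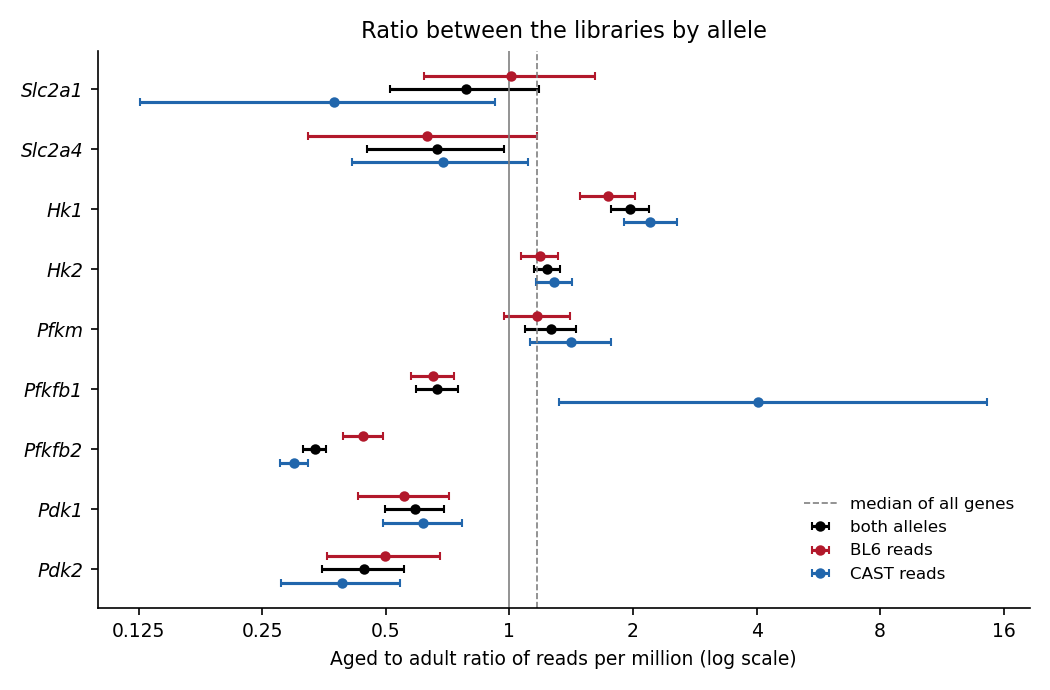
Aged to adult ratio of RPM (horizontal axis, log scale) of the 9 genes for both alleles (black), BL6 reads (red) and CAST reads (blue), with exact 95% intervals as bars. The solid line marks a ratio of 1 and the dashed line the median of all genes, 1.165. Both alleles of Pfkfb2 lie below 1 and both of Hk1 above it, and Slc2a1 is at 1.01 for its BL6 and 0.373 for its CAST reads.

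Pfkfb2 codes for the heart form of the enzyme that makes fructose bisphosphate of the 2,6 form, and it lies at chr1:130689043-130729253 on the minus strand. It was the most abundant of the 9 genes in the adult library, with 5767 reads or 591.6 RPM [576.5 to 607.1], and had 1154 reads or 198.8 RPM [187.5 to 210.6] in the aged library. The ratio was 0.336 [0.315 to 0.358], and 1.46% of all genes had a lower one. Pfkfb2 was lower on both alleles but not equally so. The BL6 reads numbered 1504 and 395, a ratio of 0.441 [0.394 to 0.493], while the CAST reads numbered 4263 and 759, a ratio of 0.299 [0.276 to 0.323], and these intervals did not overlap. CAST reads were 2.83 times the BL6 reads in adult and 1.92 times in aged nuclei. The allelic ratio was therefore far on the CAST side, at 0.261 [0.250 to 0.272] in adult and 0.342 [0.315 to 0.371] in aged nuclei, and the change of -0.0815 [-0.112 to -0.0523] excluded 0. Among autosomal genes with at least 20 adult reads, 2.67% had a lower adult allelic ratio. The share at least as far from the median on either side was 6.57% in adult and 14.5% in aged nuclei. Of the 1175 autosomal genes that reached 1000 reads in each library, 2 had an adult allelic ratio at or below that of Pfkfb2. They were Pfkfb2 itself and Airn, an imprinted noncoding RNA made from the paternal allele, here CAST, at 0.115. Airn was chosen after its value was seen. Both hearts came from the same direction of the cross, so strain and parent of origin cannot be told apart for Pfkfb2. In the 1175 genes the median absolute change in allelic ratio was 0.0266, and 77 of them (6.55%) changed by as much as Pfkfb2 or more. Yod1, a deubiquitinase gene inside the locus, had 8 reads in adult and 3 in aged nuclei. Whether several reads of 1 molecule were counted is not named in the sources used here, and with PCR copies the intervals would be too narrow.

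Pfkfb1, the liver and muscle form, is the only X-linked gene of the 9 and lies at chrX:150588258-150643878 on the plus strand. It had 979 reads in adult and 389 in aged nuclei, or 100.4 RPM [94.2 to 106.9] and 67.0 RPM [60.5 to 74.0]. Its ratio of 0.6671 [0.592 to 0.751] fell just short of the threshold of 1/1.5, within which Slc2a4 lay at 0.6649. Nearly all of its reads came from the BL6 Xa, 974 in adult and 377 in aged nuclei. The reads of the CAST Xi were 5 and 12, or 0.513 RPM [0.167 to 1.197] and 2.07 RPM [1.07 to 3.61], a ratio of 4.03 [1.32 to 14.6]. The share of CAST reads was 0.511% [0.166 to 1.19] in adult and 3.09% [1.60 to 5.33] in aged nuclei, which corresponds to allelic ratios of 0.995 [0.988 to 0.998] and 0.969 [0.947 to 0.984]. The change in allelic ratio was 0.0257 [0.011 to 0.0482], and 71 of the 342 X-linked genes with 20 reads in both libraries (20.8%) changed by at least as much in that direction. The median allelic ratio of X-linked genes was 0.976 in both libraries. Over all X-linked genes without Xist and Tsix, CAST reads made up 2.94% in adult and 3.43% in aged nuclei, so that the share of Pfkfb1 stood below this level in the adult library, and its aged interval included the level there.

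The windows of both PFKFB genes are shown because these genes were lower in the aged library while Pfkm, which codes for the enzyme their product activates, was not. For Pfkfb2 the window lies on the minus strand at chr1:130715772-130716071, which is 13432 bp inside the 5′ end of the locus. It holds 14 CG dinucleotides, 1 E-box, 1 CCAAT box and 2 GC boxes. For Pfkfb1 the window lies on the plus strand at chrX:150587993-150588292 and holds 20 CG dinucleotides and 2 GC boxes, but no E-box and no hypoxia core.
Pfkfb2: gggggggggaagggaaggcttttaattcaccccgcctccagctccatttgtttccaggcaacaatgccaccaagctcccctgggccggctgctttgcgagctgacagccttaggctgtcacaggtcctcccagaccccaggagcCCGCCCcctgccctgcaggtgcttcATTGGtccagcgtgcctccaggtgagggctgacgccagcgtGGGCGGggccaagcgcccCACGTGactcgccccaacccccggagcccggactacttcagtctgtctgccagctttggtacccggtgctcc
Pfkfb1: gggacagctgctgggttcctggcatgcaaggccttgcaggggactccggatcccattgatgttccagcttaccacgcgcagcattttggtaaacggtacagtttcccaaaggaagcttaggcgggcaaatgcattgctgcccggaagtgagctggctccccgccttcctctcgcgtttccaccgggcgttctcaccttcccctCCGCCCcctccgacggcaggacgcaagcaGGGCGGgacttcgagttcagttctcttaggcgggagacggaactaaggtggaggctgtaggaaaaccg

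**Figure D3:**
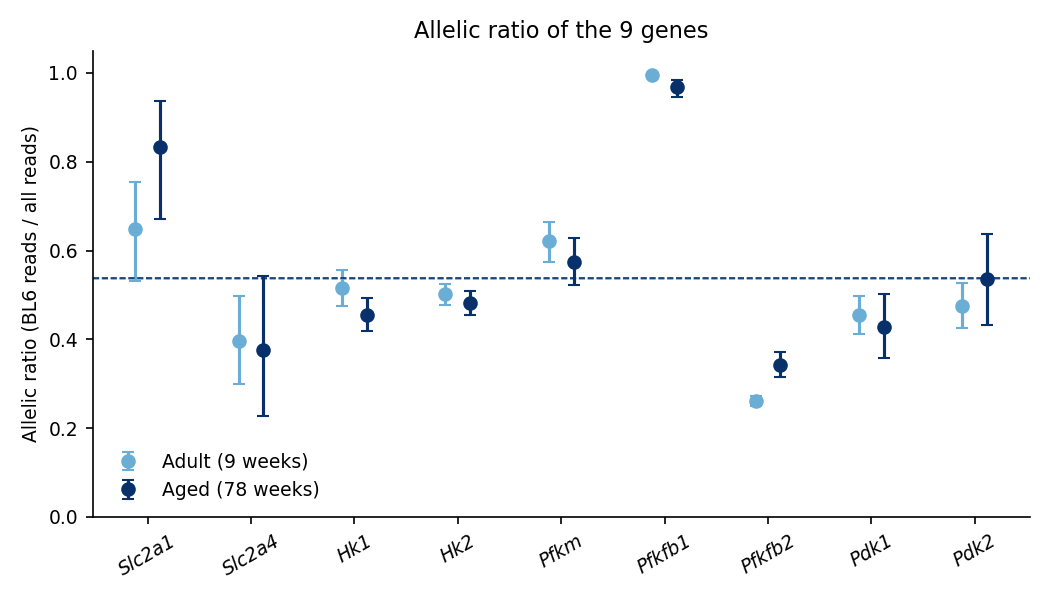
Allelic ratio, BL6 reads over all SNP-overlapping reads (vertical axis, 0 to 1), of the 9 genes in the adult (light) and the aged (dark) library, with Clopper-Pearson 95% intervals as bars and dashed lines at the autosomal medians, 0.536 and 0.537. Pfkfb2 lies on the CAST side in both libraries (0.261 and 0.342), Slc2a1 on the BL6 side, and X-linked Pfkfb1 near 1.

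The PDK genes were lower in the aged library on both alleles. Pdk1 (chr2:71873213-71903858, plus strand) had 559 reads in adult and 196 in aged nuclei, or 57.4 RPM [52.7 to 62.3] and 33.8 RPM [29.2 to 38.8]. The ratio was 0.589 [0.498 to 0.694], with 0.555 [0.429 to 0.713] for the BL6 and 0.617 [0.492 to 0.768] for the CAST reads. Pdk2 (chr11:95026258-95041371, minus strand) had 376 and 99 reads, or 38.6 RPM [34.8 to 42.7] and 17.1 RPM [13.9 to 20.8]. Its ratio was 0.442 [0.351 to 0.553], and 3.42% of all genes had a lower one, against 8.06% for Pdk1. The BL6 ratio of Pdk2 was 0.497 [0.359 to 0.679] and the CAST ratio 0.392 [0.278 to 0.543], and these intervals overlapped. Both genes lay slightly on the CAST side of the autosomal median in the adult library, with an allelic ratio of 0.454 [0.412 to 0.497] for Pdk1 and 0.476 [0.425 to 0.528] for Pdk2. Their aged allelic ratios were 0.429 [0.358 to 0.501] and 0.535 [0.432 to 0.636], and neither change excluded 0. Gm11513, a locus that lies wholly inside Pdk2 and shares 7276 bp with it, had 68 and 20 reads, a ratio of 0.494. Reads of the shared stretch cannot be assigned to 1 of the loci, so this ratio is not independent of that of Pdk2.

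The windows of the pair are shown because both genes were lower by more than 1.5-fold. For Pdk1 the window lies on the plus strand at chr2:71872974-71873273, with 25 CG dinucleotides and 2 GC boxes. For Pdk2 it lies on the minus strand at chr11:95041322-95041621, with 25 CG dinucleotides, 1 E-box and 3 CCAAT boxes. The pair shared none of the letters searched. Their high content of CG dinucleotides follows in part from the choice of window, since the window not shown held 2 for Pdk1 and 13 for Pdk2.
Pdk1: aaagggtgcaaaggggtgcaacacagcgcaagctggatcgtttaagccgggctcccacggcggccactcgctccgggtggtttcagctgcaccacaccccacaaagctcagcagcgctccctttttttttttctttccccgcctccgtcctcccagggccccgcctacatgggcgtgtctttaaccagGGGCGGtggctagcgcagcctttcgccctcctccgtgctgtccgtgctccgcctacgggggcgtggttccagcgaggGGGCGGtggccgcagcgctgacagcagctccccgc
Pdk2: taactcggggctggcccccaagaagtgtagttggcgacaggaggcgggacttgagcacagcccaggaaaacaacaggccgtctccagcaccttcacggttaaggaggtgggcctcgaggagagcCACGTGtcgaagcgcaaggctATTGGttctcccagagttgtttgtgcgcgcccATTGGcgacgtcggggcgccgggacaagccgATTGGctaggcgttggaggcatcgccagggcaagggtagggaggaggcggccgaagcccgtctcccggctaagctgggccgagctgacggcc

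Taking the 8 autosomal genes as a whole, 3 had an allelic ratio that differed from the autosomal median by 0.1 or more in the adult library (Slc2a1, Slc2a4 and Pfkfb2), beside 33.9% of autosomal genes with at least 20 reads. In the aged library Pdk1 joined them and made 4, beside 38.1% of autosomal genes. The interval excluded the median for 6 of the 8 in adult and for 5 in aged nuclei. That share was not counted over all autosomal genes, and it depends on depth. Hk2, with 1783 adult reads, was among the 6 although it lay only 0.035 from the median. An allelic ratio of 0.5 was not the centre of autosomal genes here, since the medians were 0.536 and 0.537. For Hk2, Pfkm, Slc2a4, Pdk1 and Pdk2 the interval of the change in allelic ratio included 0.

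The place of the 9 ratios among all genes was also read against what else differed between the libraries. Summed cardiomyocyte markers stood at 39869 RPM in adult and 36568 RPM in aged nuclei, a ratio of 0.917, with ratios of single markers from 0.58 (Ttn) to 4.11 (Actc1), 4 of 12 below 1 and a median of 1.148. The summed fibroblast markers had a ratio of 0.927, but most of these reads came from Lama2 (0.784), and the median over the 7 markers with 20 reads in both libraries was 1.677, with 3 below 1 and Dcn, Pdgfra, Tcf21 and Gsn between 1.677 and 2.40. Summed endothelial markers were higher in the aged library (755 and 1175 RPM, 1.56-fold), as were summed macrophage (295 and 472 RPM, 1.60-fold) and pericyte and smooth muscle markers (207 and 486 RPM, 2.35-fold), of which Kcnj8 had no read. Their median ratios were 1.49, 1.62 and 2.19 in that order. Below 1 were 2 of 8 endothelial markers (Vwf 0.954 and Emcn 0.970), 0 of 5 macrophage markers and 1 of 6 pericyte and smooth muscle markers (Abcc9, 0.853). Lymphocyte markers were at 69.6 and 44.8 RPM, without a read of Cd3e in the aged library, adipocyte markers at 23.7 and 21.2 RPM, and skeletal muscle markers at 4.51 and 2.76 RPM. The ratios of Pfkfb2, Pdk2, Pdk1, Pfkfb1 and Slc2a4 were all lower than both the summed and the median ratio of the cardiomyocyte markers. Even so, Ttn (0.58) and Ctnna3 (0.592) had ratios near that of Pdk1. The ratio of Hk1 lay between the summed ratios of the macrophage and the pericyte and smooth muscle markers. Single cardiomyocyte, fibroblast and endothelial markers lay on both sides of it, so its place was not particular to these types. For the same hearts the paper reports a smaller proportion of cardiomyocytes and a larger one of fibroblasts with age, over all nuclei rather than those with a BL6 Xa. The part of cell composition in the ratios of the 9 genes was not tested. The median ratio also moved with locus length, from 1.38 for genes under 10 kb, where Slc2a4 belongs, to 1.19 at 10 to 30 kb (Slc2a1 and Pdk2), 1.12 at 30 to 100 kb (Hk2, Pfkm, Pfkfb1, Pfkfb2 and Pdk1) and 1.00 above 100 kb (Hk1). Divided by the median of the class, 6 of the 9 were lower by 1.5-fold, Slc2a1 (0.657) and Pfkfb1 (0.594) being added, while Slc2a4 was at 0.482, Pfkfb2 at 0.299 and Hk1, whose class median was 1.00, at 1.96. The part of length in the ratios was not tested.

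**Figure D4:**
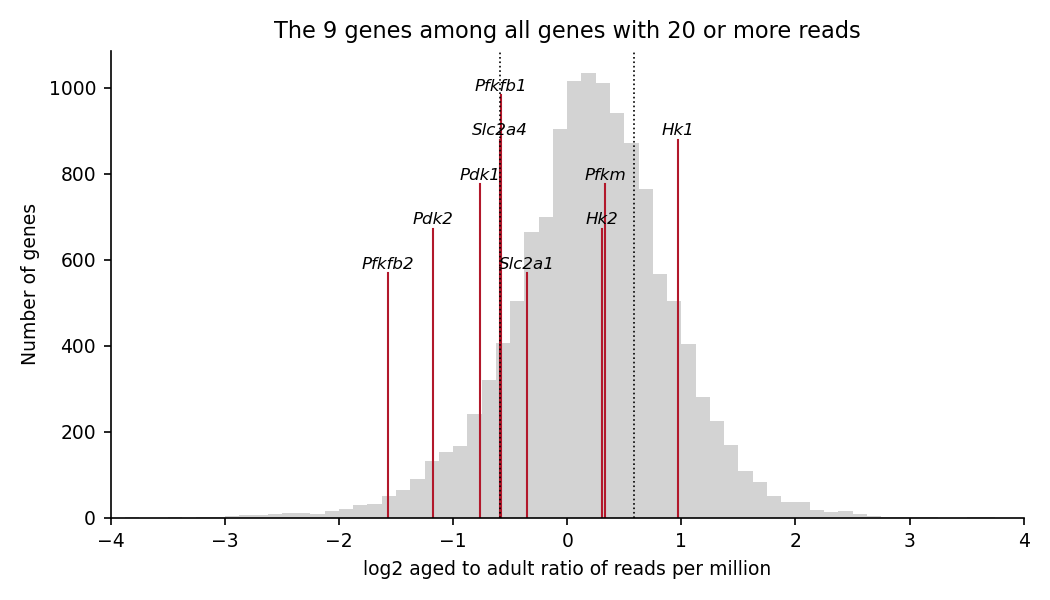
Number of genes (vertical axis) by log2 aged to adult ratio of RPM (horizontal axis) for the 12736 genes with at least 20 reads in both libraries, with the 9 genes as red lines and the 1.5-fold limits as dotted lines. The line heights only separate the names. Pfkfb2 (log2 ratio -1.57) and Pdk2 (-1.18) lie on the lower tail, and Hk1 (0.97) on the upper side.

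The paralogs of the 9 genes put these values in the frame of their families. The 4 PDK genes together went from 290.5 RPM in the adult to 111.1 RPM in the aged library, a ratio of 0.382 [0.351 to 0.417]. Pdk4, the fasting-induced form, carried 63.0% of the PDK reads in adult and 43.9% in aged nuclei, with 1784 and 283 reads and a ratio of 0.266 [0.234 to 0.302]. Pdk3, which is X-linked, had 113 and 67 reads, a ratio of 0.996 [0.725 to 1.36], so that 3 of the 4 PDK genes were lower and Pdk3 was near 1. The subunits of the pyruvate dehydrogenase complex, the target of the kinases (Pdha1, Pdhb, Dlat, Dld and Pdhx), summed to 295.4 and 399.4 RPM, a ratio of 1.35 [1.28 to 1.43]. The PFKFB genes together stood at 758.2 and 349.8 RPM, a ratio of 0.461 [0.439 to 0.485]. Within them Pfkfb2 made up 78.0% [77.1 to 79.0] of the reads in adult and 56.8% [54.6 to 59.0] in aged nuclei, and Pfkfb3, the inducible form, 7.70% and 20.04%. Levels of Pfkfb3 were 58.4 and 70.1 RPM, a ratio of 1.201 [1.06 to 1.37]. The phosphofructokinase subunit genes Pfkm, Pfkl and Pfkp had a summed ratio of 1.32 [1.196 to 1.45]. Slc2a1, Slc2a3, Slc2a4 and Slc2a12 summed to 53.4 and 35.8 RPM, a ratio of 0.672 [0.569 to 0.790], and most of these reads came from Slc2a12 in the adult library, 54.6%.

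Beyond the families, 103 genes of glucose use were listed by step, the 9 genes included, of which 102 had reads in either library and 81 at least 20 reads in both. Of these 81 genes, 21 were higher by 1.5-fold (25.9%, beside 28% of all genes), 17 lower (21.0%, beside 11.8%) and 43 neither, with a median ratio of 1.108. The balance between the directions turned with the scale, with 14 higher and 21 lower by the median of ratios, 29 and 12 by the cardiomyocyte markers, and 11 and 22 after division by the median of the class of locus length. Without the 9 genes the numbers were 20 higher and 13 lower of 72, with a median of 1.212. Counts by step used reads scaled to the library total and were not repeated on the other scales. The steps of lower glycolysis had 6 of 9 genes higher and 0 lower, with a median of 1.73, beside 28% of all genes. Among them were Pkm, the muscle and general form of pyruvate kinase (1.73 [1.45 to 2.06]), Eno1, an enolase (1.99 [1.60 to 2.48]), and X-linked Pgk1, phosphoglycerate kinase, with 53 and 54 reads (1.71 [1.15 to 2.55]). Gapdh and Pgam1 counted among the 6 with 21 to 27 reads per library, and Bpgm, at 1.007, lay below the median of all genes. The share of all genes higher by 1.5-fold also moved with locus length, from 43.2% under 10 kb to 19.0% above 100 kb. The genes of lower glycolysis were not set beside genes of their own length, and the part of length in their count was not tested. In the list of glucose transport 1 of 6 genes was higher (Slc2a3) and 2 were lower (Slc2a4 and Slc2a12), and in that of hexokinases and their partners 3 of 5 were higher (Hk1, Gpi1 and G6pc3) and 0 lower. In the phosphofructokinase steps 2 of 8 were higher (Pfkl and Pfkfb4) and 1 lower (Pfkfb2). In lactate and pyruvate handling 2 of 9 were higher (Ldha and Slc16a1) and 2 lower (Slc16a7 and Me3). In the pyruvate dehydrogenase list 2 of 11 were higher (Pdha1 and Pdhb) and 3 lower (Pdk1, Pdk2 and Pdk4). In glycogen metabolism 4 of 18 were higher (Phka1, Gys1, Pgm1 and Ppp1r3c) and 6 lower, and in GLUT4 traffic and control 1 of 15 was higher (Myo1c) and 3 lower (Tbc1d4, Aspscr1 and Mlxipl). Some of these names, Eno1, Pkm, Gapdh, Pgam1 and Gpi1 among them, were chosen after their values were seen.

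The genes farthest from 1 in these lists, other than the 9, included regulators of the same steps. Tbc1d4, the AKT substrate that holds back GLUT4 vesicles, had 10990 and 2209 reads, a ratio of 0.338 [0.322 to 0.353] close to that of Pfkfb2. Myo1c, a motor protein of GLUT4 vesicles, was 2.83-fold higher [2.31 to 3.46], and Slc2a12, a further glucose transporter, stood at 0.390 [0.294 to 0.512]. Around pyruvate, Ldha, the lactate dehydrogenase subunit of muscle, was 2.56-fold higher [2.17 to 3.02], while Slc16a7, a monocarboxylate transporter, was at 0.452 [0.408 to 0.498] and Me3, a mitochondrial malic enzyme, at 0.415 [0.379 to 0.454]. In glycogen metabolism Gys1, the muscle glycogen synthase, was 2.43-fold higher [2.08 to 2.85], and Pygl, the liver form of glycogen phosphorylase, and Epm2a, which codes for the glycogen phosphatase laforin, had ratios of 0.408 [0.258 to 0.627] and 0.377 [0.338 to 0.420]. G6pc3, a glucose phosphatase, was 2.90-fold higher [1.80 to 4.74] with 29 and 50 reads. The largest ratio was that of X-linked Phka1, the muscle regulatory subunit of phosphorylase kinase, with 1497 and 4665 reads, 153.6 and 803.5 RPM and a ratio of 5.23 [4.94 to 5.55].

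**Figure D5:**
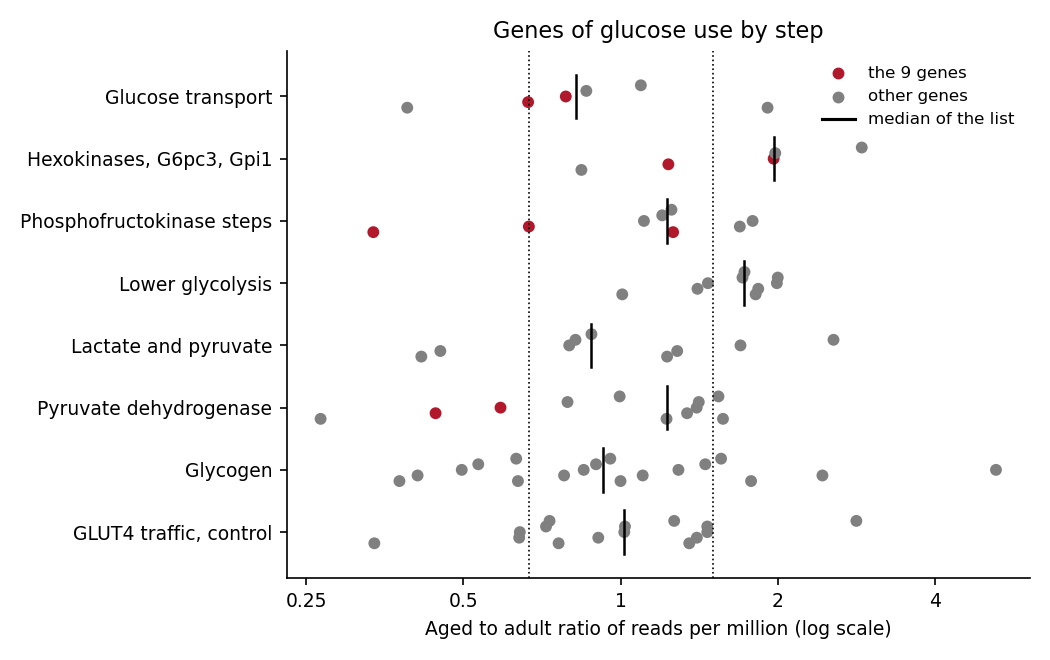
Aged to adult ratio of RPM (horizontal axis, log scale) of the 81 genes of glucose use with at least 20 reads in both libraries, by step, with the 9 genes in red, other genes in grey, list medians as black bars and the 1.5-fold limits as dotted lines. All 9 genes of lower glycolysis lie above 1, while the red points of glucose transport and pyruvate dehydrogenase lie below it.

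The X-linked genes of the lists give a frame for the allelic ratio of Pfkfb1. Phka1 had an allelic ratio of 0.991 [0.985 to 0.995] in adult and 0.997 [0.995 to 0.998] in aged nuclei, and its relative Phka2, at a ratio of 0.534 [0.455 to 0.624], had 0.981 [0.967 to 0.990] and 0.981 [0.953 to 0.995]. Pdha1, the E1 subunit of the complex that the PDK enzymes act upon, had the largest CAST share of the 6 X-linked genes, its allelic ratio being 0.935 [0.896 to 0.963] and 0.940 [0.8997 to 0.968] and a ratio of 1.57 [1.30 to 1.90]. Pgk1 had 2 CAST reads and 1 CAST read, an allelic ratio of 0.962 and 0.981. Pdk3 had no CAST read among 113 in the adult library, for which a floor of 3 reads allows a CAST share of up to 2.65% and the Clopper-Pearson limit an allelic ratio down to 0.968, and 2 among 67 in the aged library (allelic ratio 0.970 [0.896 to 0.996]). The adult and aged intervals of the allelic ratio did not overlap for Pfkfb1 and overlapped for the other 5. The width of these intervals depends on depth, and Pgk1, Pdk3 and Pdha1 had 53 to 232 reads per library, against 979 and 389 for Pfkfb1. The values of Pfkfb1 rest on 5 and 12 CAST reads. Both of its allelic ratios lay above the cutoff at or below which the paper calls a gene an escapee.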

How the data were processed

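The values came from snRNA-seq of 1 adult and 1 aged heart. Alignment by the authors used Cell Ranger 7.1.0 on mm10. They split the alignments by nucleus with sinto, classed each nucleus by its Xa, and counted SNP-overlapping reads of the BL6 and CAST alleles over RefSeq loci of GRCm38 with Allelome.PRO2. The deposited counts are raw reads per gene, and the deposited allelic ratio is a fraction rounded to 2 decimals. The deposited allelic score was not used. Counts over whole loci include introns. CellBender and DoubletFinder are described for expression matrices, and their use for these counts is not given in the sources used here.

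Here, the allelic ratio was recomputed from the reads, RPM from each library's total, and ratios from genes with at least 20 reads in both libraries. Intervals (95%) were exact Poisson for levels, exact conditional for ratios, Clopper-Pearson for allelic ratios and shares, and Newcombe for changes in allelic ratio. They cover counting error only, and a count of 0 allows up to 3 reads. With 1 library per age no test was made, and a fold of 1.5 and a difference in allelic ratio of 0.1 served as fixed limits beside the share of all genes past them. Starts were counted from 0 in the files, since adding 1 matched the RefSeq start for 66.4% of 23058 genes against 0.971% as written, and are printed counted from 1. Strands and identifiers came from GENCODE M21. Python 3.11.15, scipy 1.17.1 and pandas 2.3.3 were used, and the functions were tested on simulated data.

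The 9 genes, the pathway lists and the marker lists were chosen with earlier results of these data known. Genes named beside them were the X-linked pathway genes, the 12 other pathway genes farthest from a ratio of 1 whose intervals did not overlap, loci that overlap one of the 9 genes, and those said to be chosen after their values were seen. Alternatives were other scales, read minimums and folds, single alleles, thinned adult reads and removal of overlapped loci. Division by the median ratio of the length class and removal of Pfkfb2 were added after the data were seen.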

Additional observations from a re-analysis of the deposited data

How the results depend on the processing

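No paired analysis was possible because each age had 1 library. Of 84 alternative values of the main results 73 moved by no more than the limit used here, which was a factor of 1.5 for a count and the interval of the middle gene for the median. Some of the 73 could not move. A minimum of 10 reads, or none, kept the same 9 genes, so the counts and the median of their ratios were fixed in advance. Scaling to autosomal reads and thinning of the adult reads had little room to move a value. They left the median ratio of all genes at 1.164 and 1.166, beside 1.165. Of the ratios of single genes, that of Slc2a1 crossed 1, at 1.01 with BL6 reads alone and up to 1.16 in single draws of thinned adult reads, and no other did (CAST reads of X-linked Pfkfb1 alone were not used as an alternative). The median ratio of the 9 genes, 0.667, was 0.5725 when reads were scaled by the median of ratios, and 0.9508 with a minimum of 100 reads, which left 6 genes. The 4 genes lower by 1.5-fold became 2 with that minimum, 2 at a fold of 2 and 2 without genes that overlap another locus, which left 5. The 1 gene higher became 0 at a fold of 2, 2 at a fold of 5/4 (with Pfkm) and 0 without overlapped genes, which leaves out Hk1. Under division by the median of the length class 11 of 81 pathway genes were higher instead of 21, and 22 lower instead of 17. The median of ratios gave 14 and 21 and the cardiomyocyte marker scale 29 and 12. With a minimum of 100 reads, 2 of 5 autosomal genes instead of 4 of 8 lay 0.1 from the aged median, and 0 instead of 1 changed by 0.1 in allelic ratio, since Slc2a1 and Slc2a4 were left out. Over 7 settings with both alleles, the ratio of Pfkfb2 ranged from 0.288 to 0.366, that of Pdk2 from 0.370 to 0.482, that of Pdk1 from 0.505 to 0.642 and that of Hk1 from 1.69 to 2.14. That of Pfkfb1 ranged from 0.573 to 0.727 and that of Slc2a4 from 0.482 to 0.725, so that these 2 genes crossed the limit of 1/1.5 with the scale. Depth limits the transporters most, with 36 and 40 aged reads, and 1 heart per age limits every ratio.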

Other observations

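Some values of sparse glucose genes outside the comparisons stood out and were chosen after they were seen. Slc16a3, a lactate exporter that overlaps Csnk1d, had 10 reads in adult and 41 in aged nuclei, a ratio of 6.88 [3.39 to 15.4]. Fbp2, the muscle fructose bisphosphatase, had 57 and 5 reads, a ratio of 0.147 [0.0461 to 0.364]. Each had fewer than 20 reads in 1 library and so entered no count.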
